A study of Mus musculus with 12 samples.

Results

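Type I interferon-stimulated genes are switched on when a cell senses interferon alpha or beta, and 40 of them were followed here in RNA from mouse colon. They are a list of interferon-stimulated genes set by symbol, chosen with earlier results of these data known. All 40 were found among the 54532 genes counted, and all 40 had enough reads to be tested. The colons came from 12 male C57BL/6 mice that were 6 weeks old on arrival, with 3 mice in each of 4 groups. The labels give the same strain for every group and name no transgene or deletion. Con mice had plain water and, by the methods, the vehicle by gavage, where the sample labels say that they had no treatment. DSS mice drank 3% (w/v) dextran sulfate sodium (DSS), which injures the colon epithelium, for 5 days and had the vehicle by gavage. UA+DSS mice had the same DSS and 200 mg/kg ursolic acid (UA), a plant triterpenoid, by gavage for 7 days from 1 day before DSS. DSS+UA mice had the same DSS and dose of UA for 4 days from 3 days after the start of DSS. These days are those of the methods, and the discussion of the study gives longer courses of UA for both groups. The sources used here do not say which stretch of the colon was taken from each mouse.

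Type I interferons bind a receptor of the chains IFNAR1 and IFNAR2, which signals through the kinases JAK1 and TYK2. The factor ISGF3, which holds STAT2 and IRF9, then binds the interferon-stimulated response element (ISRE) in the promoters of target genes. The targets include sensors of viral RNA and DNA, enzymes that degrade or block viral RNA, the ubiquitin-like protein ISG15 and further IRF factors that amplify the response. In the gut, epithelial cells also respond to interferon lambda through the receptor IFNLR1, which uses the same ISGF3. A low level of these transcripts is known in healthy intestine and depends on the microbiota.

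The promoters of the genes described below are shown because the ISRE is the element through which ISGF3 acts. The 250 bases before the start of each gene are printed 5′ to 3′ on the strand of the gene, from the RefSeq promoter table of GRCm38.p6. Capitals mark each ISRE core, written as GAAANNGAAA, or TTTCNNTTTC where it lies on the other strand. Isg15 (chr4:156200819-156201068, minus strand), Ddx60 (chr8:61927837-61928086, plus strand), Ifit1 (chr19:34640639-34640888, plus strand) and Rsad2 (chr12:26456453-26456702, minus strand) hold cores. Irf5 (chr6:29526375-29526624, plus strand) and Trim25 (chr11:88999153-88999402, plus strand) are shown as 2 genes without one in this window.
Isg15: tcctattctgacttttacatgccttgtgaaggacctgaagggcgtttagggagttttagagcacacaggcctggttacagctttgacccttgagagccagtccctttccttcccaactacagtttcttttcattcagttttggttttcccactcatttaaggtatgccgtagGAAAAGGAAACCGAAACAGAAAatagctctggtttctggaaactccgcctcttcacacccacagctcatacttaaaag
Ddx60: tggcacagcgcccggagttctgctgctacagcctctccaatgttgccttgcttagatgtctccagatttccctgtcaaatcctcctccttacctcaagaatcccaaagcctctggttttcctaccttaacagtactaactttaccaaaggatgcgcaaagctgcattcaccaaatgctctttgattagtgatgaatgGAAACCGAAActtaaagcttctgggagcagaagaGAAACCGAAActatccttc
Ifit1: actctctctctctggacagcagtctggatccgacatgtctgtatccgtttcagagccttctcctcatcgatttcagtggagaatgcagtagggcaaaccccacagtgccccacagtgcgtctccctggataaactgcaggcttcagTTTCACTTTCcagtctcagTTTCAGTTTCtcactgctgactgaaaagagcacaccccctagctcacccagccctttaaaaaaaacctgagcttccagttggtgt
Rsad2: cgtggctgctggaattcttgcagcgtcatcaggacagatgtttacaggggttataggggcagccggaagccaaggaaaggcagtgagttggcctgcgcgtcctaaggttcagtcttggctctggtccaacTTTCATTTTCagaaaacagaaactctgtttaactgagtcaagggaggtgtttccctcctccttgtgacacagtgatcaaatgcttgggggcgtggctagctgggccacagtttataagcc
Irf5: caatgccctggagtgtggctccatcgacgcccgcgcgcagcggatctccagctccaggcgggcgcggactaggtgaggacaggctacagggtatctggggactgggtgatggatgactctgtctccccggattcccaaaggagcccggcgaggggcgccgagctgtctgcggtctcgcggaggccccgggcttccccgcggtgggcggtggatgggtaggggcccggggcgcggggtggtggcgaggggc
Trim25: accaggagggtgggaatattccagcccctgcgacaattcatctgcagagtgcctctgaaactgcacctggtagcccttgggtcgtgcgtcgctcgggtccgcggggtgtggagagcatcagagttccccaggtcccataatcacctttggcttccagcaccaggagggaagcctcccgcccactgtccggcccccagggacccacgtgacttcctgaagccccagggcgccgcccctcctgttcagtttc
Isg15 held 3 overlapping cores that began 78, 72 and 66 bases before the start. Ddx60 held 2 identical cores 53 and 19 bases before the start, and Ifit1 held 2 on the other strand, 104 and 85 bases before it. Rsad2 held 1 core 120 bases before the start, also on the other strand. Over the whole window of 250 bases before to 50 after a start, 29 of the 40 genes had an entry and 15 of these 29 (51.7%) held a core. Of the 27025 genes in that table, 3.99% held one. The GAS site, written as TTCNNNGAA and reading alike on both strands, was in 6 of the 29 genes (20.7%) and in 9.55% of all genes. A match in letters is a description and does not show binding.

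Levels are in CPM, the counts of a gene brought to the same total in every library with the TMM factors of edgeR, which bring libraries of different make-up to a common scale. Libraries are named by group and replicate, so that DSS 2 is replicate 2 of the DSS group. They held 15566216 to 19498383 counts, and 3 counts, the smallest level read as present, equalled 0.144 to 0.192 CPM. The groups were compared by the quasi-likelihood test of edgeR, with 1 model for the 12 libraries and p-values adjusted by the Benjamini-Hochberg method over the 17658 genes that passed its low-count filter. A gene was called where its adjusted p was under 0.05. Every library held the 6 epithelial markers, at 4426 to 7398 CPM in sum in DSS and 7554 to 13293 in the 9 others. Singly, only Epcam and Krt8 were lower in every DSS library than in any other. Krt20 was lowest in Con 1 (298 CPM, against 398 to 812 in DSS). In DSS 3, Vil1 (446 CPM) and Slc26a3 (587) were above Con 1 (385 and 523), and Cdh1 (743) was above UA+DSS 1 (707). DSS 2 stood apart by its neutrophil markers (15323 CPM in sum, against 524 and 682 in the other DSS libraries and 0.998 to 1.98 in Con). DSS 3 stood apart by pancreas acinar markers (8407 CPM, against 29.9 to 553 in all other libraries). Con 1 stood apart from Con 2 and Con 3 in a position score made of Hox genes, described below. The labels do not say whether the mice of a group shared a cage or litter, so p-values measure the spread between these mice.

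By the mean level of the 40 genes the libraries fell into 5 higher and 7 lower ones, a split that kept UA+DSS, DSS and DSS+UA whole and divided Con. An interferon index, the mean log2 CPM of the 40 genes, was 3.93 in Con 1, 6.27 in Con 2 and 6.03 in Con 3. In DSS 1, DSS 2 and DSS 3 it was 5.15, 4.60 and 3.85. In UA+DSS 1, UA+DSS 2 and UA+DSS 3 it was 5.59, 6.53 and 5.37. In DSS+UA 1, DSS+UA 2 and DSS+UA 3 it was 3.85, 4.94 and 4.63. Con 2, Con 3 and all of the UA+DSS libraries thus lay between 5.37 and 6.53, and Con 1 with all of the DSS and DSS+UA libraries between 3.85 and 5.15. The group means were 5.41 ± 1.29 in Con, 4.53 ± 0.66 in DSS, 5.83 ± 0.62 in UA+DSS and 4.47 ± 0.56 in DSS+UA (SD, n = 3). The SD of Con was the widest, since Con 1 was 1 of the lowest libraries and Con 2 and Con 3 were among the highest. The sum of the 4 goblet cell markers split the libraries in the same way. It was 6729 to 8564 CPM in Con 2, Con 3 and UA+DSS and 376 to 5634 in Con 1, DSS and DSS+UA. Of the 4, only Muc2 split them so by itself, at 3152 to 6627 CPM in those 5 libraries and 147 to 1420 in the 7 others. Fcgbp, Clca1 and Tff3 did not, and each was lower in Con 2 than in Con 1. All 4 goblet markers were above 0 in every library, and their part in the index was not tested. In bulk RNA, fewer cells of a type and less RNA per cell cannot be told apart.

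**Figure D1:**
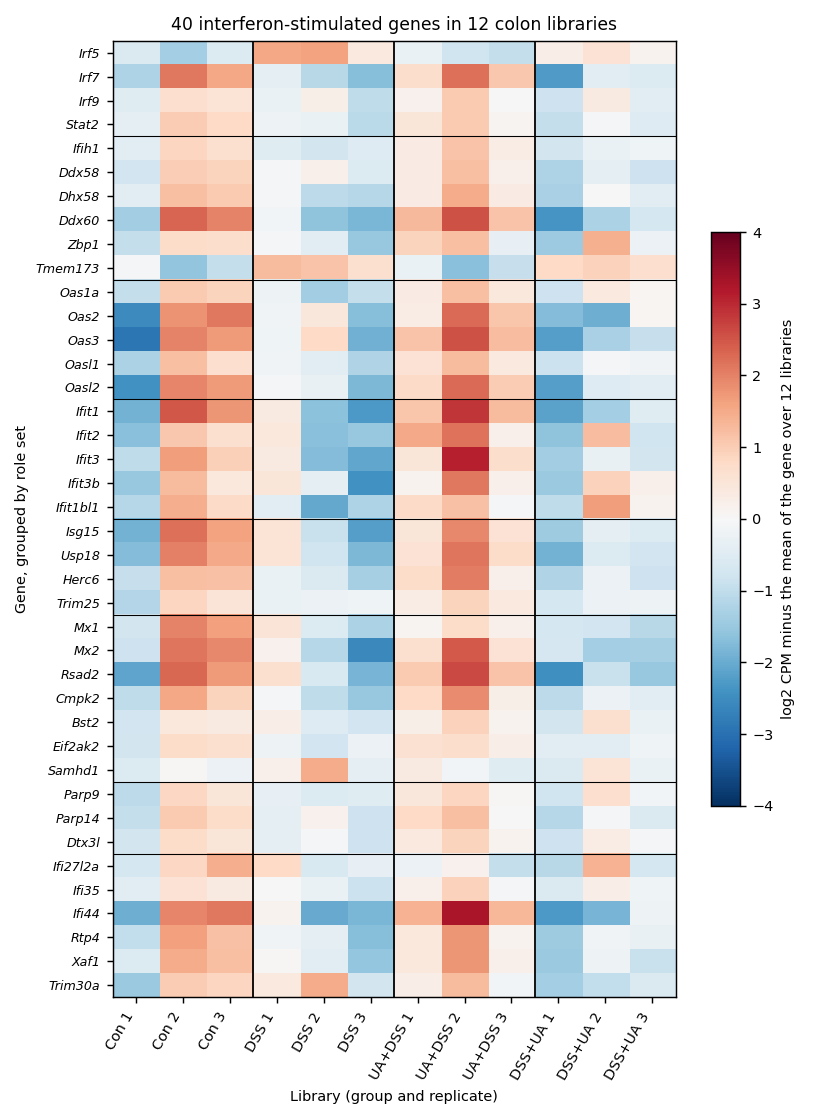
Each row is 1 of the 40 genes, grouped by role set, and each column 1 of the 12 libraries. The colour is the log2 CPM minus the mean of the gene over the 12 libraries, from blue (low) to red (high). Con 2, Con 3 and the UA+DSS libraries are red in most rows, while Con 1 is blue, and Irf5 and Tmem173 run the other way.

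Con 1 was the lowest Con library for 38 of the 40 genes, the exceptions being Irf5 and Tmem173. Over all tested genes, Con 1 was the lowest of its group for 37.9%. For 36 of the 40 genes both Con 2 and Con 3 were at least 2-fold over Con 1, which held for 6.95% of all tested genes. The 4 others were Irf5, Tmem173, Samhd1 and Ifi35. The gap between the mean of Con 2 and Con 3 and Con 1 had a median of 2.13 on the log2 scale over the 40 genes, with a range of -1.19 to 4.75. Over all tested genes that median was -0.04. The widest gaps, as ratios, were 26.8-fold in Oas3, 22.8-fold in Oas2, 18.9-fold in Oasl2 and 17.0-fold in Rsad2. These counts set mice of 1 group against each other and carry no test.

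The other groups also had a library that led. UA+DSS 2 was the highest of its group for 37 genes (34.8% of all tested genes), and DSS 1 for 30 (29.6%). DSS 2, with its high neutrophil markers, led in 9 genes (34.9% of all tested genes): Irf5, Irf9, Ddx58, Oas2, Oas3, Samhd1, Parp14, Dtx3l and Trim30a. DSS 3, with its pancreas acinar markers, was the lowest of its group for 31 genes (33.1%). DSS+UA 2 was the highest of its group for 28 genes (37.6%) and DSS+UA 1 the lowest for 34 (35.2%).

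The genes differed in level and in how far they ranged. Per kilobase of exon, the mean level was highest in Ifit1bl1 at 157 RPKM (CPM divided by the exon length in kilobases), then Isg15 at 94.0, Ifi27l2a at 90.6 and Bst2 at 70.0. It was lowest in Mx2 at 1.01, Herc6 at 1.92 and Mx1 at 2.13 RPKM. The highest library was 50.4-fold over the lowest in Ifi44, 45.5-fold in Mx2 and 45.1-fold in Oas3. In Eif2ak2 the same ratio was 2.82 and in Bst2 3.26.

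Among the signal factors, Irf7, the IRF that amplifies type I interferon production, had the highest level. It stood at 60.1, 619.8 and 419 CPM in Con 1 to 3, 108, 66.2 and 43.8 in DSS 1 to 3, 234, 661 and 302 in UA+DSS 1 to 3 and 29.9, 107 and 97.5 in DSS+UA 1 to 3. Con 2, Con 3 and the UA+DSS libraries were above all others, and Con 1 fell inside the DSS range. Irf9 and Stat2, which encode parts of ISGF3, had means of 71.2 ± 27.3 and 78.9 ± 33.8 CPM in Con and 47.4 ± 19.1 and 37.9 ± 11.3 in DSS (SD, n = 3). Irf5, an IRF of macrophages and B cells downstream of Toll-like receptors, went the other way. Its levels were 8.83, 5.15 and 8.97 CPM in Con, 38.8, 40.9 and 17.4 in DSS, 10.96, 7.61 and 6.85 in UA+DSS and 15.8, 20.1 and 14.5 in DSS+UA. The DSS and DSS+UA libraries were all above the Con and UA+DSS libraries. Irf5 (ENSMUSG00000029771, GRCm38 chr6:29526625-29541871) overlaps Tnpo3 on the opposite strand over 14.1% of its exon bases, and without known strand in the counting its reads are not fully its own.

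The sensors held the genes with the most regular differences. Ifih1 (ENSMUSG00000026896, GRCm38 chr2:62595798-62646255) encodes MDA5, a sensor of long double-stranded RNA. It was at 60.7, 147 and 128 CPM in Con, 58.5, 49.1 and 56.3 in DSS, 103, 177 and 100.4 in UA+DSS and 49.1, 68.2 and 72.3 in DSS+UA. All DSS libraries were below all Con libraries, although Con 1 was close to them. Ddx60 (ENSMUSG00000037921, GRCm38 chr8:61928087-62038244), a helicase that aids the RNA sensors, ranged more widely. It was at 17.4, 232 and 183 CPM in Con, 43.3, 15.1 and 13.0 in DSS, 113, 268 and 103 in UA+DSS and 8.89, 19.1 and 28.2 in DSS+UA. Con 1 fell among the DSS libraries, and every UA+DSS library was above every DSS and DSS+UA library. Tmem173 (ENSMUSG00000024349, GRCm38 chr18:35733679-35740554) encodes STING, the adaptor of cytosolic DNA sensing. It was at 19.52, 6.82 and 10.6 CPM in Con, 49.9, 45.8 and 32.4 in DSS, 17.2, 6.43 and 10.8 in UA+DSS and 35.7, 39.2 and 32.5 in DSS+UA. Like Irf5 it was high in every DSS and DSS+UA library and low in every Con and UA+DSS library, without overlap. Ddx58 and Dhx58, which encode RIG-I and its relative LGP2, and Zbp1, a sensor of Z-form nucleic acid, ranged 5.42-, 6.91- and 7.75-fold over the 12 libraries.

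The OAS family is known for enzymes that make the second messenger that activates RNase L. Oasl2 led it at 15.5, 320.3 and 274 CPM in Con, 79.1, 68.3 and 23.8 in DSS, 143, 399 and 169.7 in UA+DSS and 18.1, 58.7 and 61.3 in DSS+UA. Con 1 was below every other library. The 5 family members were lower in the DSS group than in Con (log2 fold change -1.83 to -1.04), and none was called. In UA+DSS against DSS they were 1.33 to 2.05 higher on the log2 scale, again without a call. Oas1a shares 57.6% of its stretches of 50 bases with other genes, among them Oas1g and Oas1b, so its counts are uncertain.

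The IFIT proteins bind viral RNA ends and halt its translation. Ifit1bl1, an IFIT1-like gene, had the highest level of all 40 genes at 123, 729 and 455 CPM in Con and 197, 64.3 and 114 in DSS. It was at 457, 605 and 253 CPM in UA+DSS and 132, 844 and 295 in DSS+UA, so that DSS+UA 2 was the highest library of all. Ifit1 was at 10.5, 221 and 133 CPM in Con, 50.4, 12.5 and 7.97 in DSS, 84.3, 288 and 93.9 in UA+DSS and 8.79, 15.3 and 28.4 in DSS+UA. The UA+DSS libraries of Ifit1 lay above all DSS and DSS+UA libraries. Ifit2 was at 9.81, 65.9 and 49.4 CPM in Con, 42.5, 9.89 and 10.9 in DSS, 89.6, 142 and 36.3 in UA+DSS and 10.2, 74.4 and 18.1 in DSS+UA, and its groups overlapped. Ifit3 and Ifit3b share 51.2% and 44.95% of their stretches of 50 bases, mostly with each other, and their counts cannot be cleanly divided.

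The ISG15 system attaches a ubiquitin-like protein to others, with Herc6 as a ligase, Usp18 as the enzyme that removes it and Trim25 as a ubiquitin ligase of RIG-I signalling. Isg15 was at 12.3, 212 and 139 CPM in Con, 66.7, 24.8 and 9.76 in DSS, 63.8, 174 and 68.5 in UA+DSS and 16.8, 34.4 and 30.8 in DSS+UA. Con 1 and DSS 3 were its lowest libraries and Con 2 its highest. Trim25 (ENSMUSG00000000275, GRCm38 chr11:88999376-89020293) had the highest CPM of the set. It was at 83.1, 343 and 267 CPM in Con, 156, 159 and 167 in DSS, 231, 349.6 and 247 in UA+DSS and 116, 159 and 163 in DSS+UA. Con 1 was the lowest of the 12, and the UA+DSS libraries were above every DSS and DSS+UA library. Herc6 shares 12.5% of its stretches of 50 bases with a gene model that overlaps it.

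Restriction factors and nucleotide enzymes block steps of viral growth. Mx1 (ENSMUSG00000000386, GRCm38 chr16:97447035-97462907), a dynamin-like GTPase, was at 3.61, 24.4 and 19.3 CPM in Con, 8.82, 4.15 and 2.47 in DSS, 6.60, 10.4 and 7.01 in UA+DSS and 3.74, 3.59 and 2.77 in DSS+UA. Con 2 and Con 3 were above all other libraries, UA+DSS included. Mx2 is listed in the gene annotation as a polymorphic pseudogene. Read counts do not show whether Mx1 or Mx2 makes a working protein in these mice. Rsad2 (ENSMUSG00000020641, GRCm38 chr12:26442746-26456452) encodes viperin, which makes a chain-ending nucleotide. It was at 2.74, 59.2 and 39.1 CPM in Con, 18.7, 7.79 and 3.25 in DSS, 25.1, 75.1 and 26.8 in UA+DSS and 2.10, 6.49 and 4.15 in DSS+UA. Every UA+DSS library was above every DSS and DSS+UA library. Samhd1, which breaks down dNTPs, had the highest CPM of the set and another pattern, at 82.6, 125 and 101 CPM in Con and 137, 334 and 94.3 in DSS. It was at 155, 111 and 86.1 CPM in UA+DSS and 80.0, 175 and 99.6 in DSS+UA, with DSS 2 far above the rest. Eif2ak2, the RNA-activated kinase PKR, was at 38.9, 108 and 101 CPM in Con, 56.2, 38.2 and 55.1 in DSS, 98.8, 105 and 77.5 in UA+DSS and 48.8, 48.2 and 57.1 in DSS+UA. Its UA+DSS libraries did not overlap with DSS or DSS+UA.

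PARP9 and DTX3L act as a pair that modifies histones and host proteins in the interferon response, and PARP14 is a related enzyme. Parp14 led the set at 49.3, 196 and 158 CPM in Con, 73.0, 108 and 54.1 in DSS, 164, 218 and 95.3 in UA+DSS and 43.2, 92.1 and 64.0 in DSS+UA. UA+DSS 3 lay below DSS 2, so that those groups overlapped. Among the remaining genes, Rtp4, a regulator of type I interferon responses, was at 17.9, 113 and 80.1 CPM in Con, 32.6, 27.2 and 10.8 in DSS, 47.9, 122 and 39.2 in UA+DSS and 13.4, 32.3 and 28.9 in DSS+UA. Con 2 and UA+DSS 2 were its highest libraries. Ifi27l2a, a small membrane protein gene, was at 21.4, 61.1 and 95.9 CPM in Con, 60.3, 22.6 and 27.7 in DSS, 29.2, 38.6 and 17.9 in UA+DSS and 15.99, 91.4 and 21.0 in DSS+UA. Trim30a was at 10.6, 61.1 and 54.5 CPM in Con, 38.9, 83.2 and 17.9 in DSS, 35.7, 72.1 and 28.0 in UA+DSS and 11.5, 15.0 and 20.0 in DSS+UA. In neither gene did the UA+DSS libraries stand clear of DSS. Rtp4 shares 11.6% of its stretches of 50 bases with an overlapping gene model, and Ifi35 overlaps Gm11626 on the opposite strand over 16.8% of its exon bases.

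**Figure D2:**
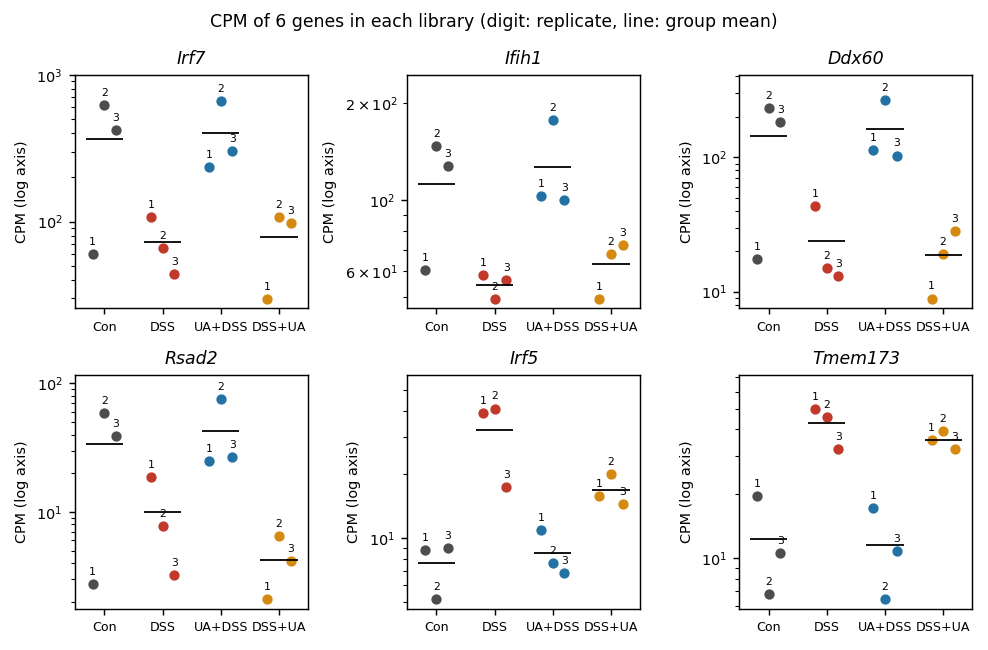
Each panel gives the CPM of 1 gene on a log axis, with 1 point per library, its replicate number above it and a line at the group mean. Irf7, Ifih1, Ddx60 and Rsad2 are high in Con 2, Con 3 and UA+DSS and low in Con 1. Irf5 and Tmem173 are higher in every DSS and DSS+UA library than in any Con or UA+DSS library.

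The comparison of DSS with Con asks what colitis did to these genes. Irf5 rose (log2 fold change 2.08, SE 0.35, adjusted p = 0.00332 by edgeR's quasi-likelihood test) and so did Tmem173 (log2 fold change 1.80, SE 0.40, adjusted p = 0.00947). Ifih1 fell (log2 fold change -1.03, SE 0.32, adjusted p = 0.0354), and Ddx60 fell as well (log2 fold change -2.59, SE 0.86, adjusted p = 0.0474). The other 36 genes were not called, against 26.5% of all tested genes called in this comparison, so 4 of 40 was below the background. Irf7 just missed the threshold (log2 fold change -2.33, SE 0.78, adjusted p = 0.0501). In the estimates 36 genes were lower in DSS and 4 higher, with a median log2 fold change of -1.19, where the median of all tested genes was -0.03. No overlap between the groups was seen for 2 genes higher in DSS, Irf5 and Tmem173 (21.0% of all tested genes), and for 1 gene lower, Ifih1 (20.3%).

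Con 1 decided the count. Without it, 19 genes fell and 2 rose in DSS against Con, where 10.2% of all tested genes fell and 11.3% rose. The genes that fell then were 3 of the sensors (Ddx60, Ifih1 and Dhx58), Irf7, Stat2, 3 of the OAS family (Oas1a, Oasl1, Oasl2), Ifit1, Isg15, Herc6, Trim25, Mx1, Mx2, Cmpk2, Eif2ak2, Ifi44, Rtp4 and Xaf1. Ddx60 had a log2 fold change of -3.12, SE 0.65, adjusted p = 0.0155, Irf7 of -2.84, SE 0.61, adjusted p = 0.0162, and Isg15 of -2.38, SE 0.72, adjusted p = 0.0444 without Con 1. In the fit without Con 1, Con held only libraries on the caecal side of the position score described below (-3.03 and -1.83). DSS held only libraries on the rectal side (0.37 to 3.10), so position and DSS cannot be told apart there. Con 2 and Con 3 were above all DSS libraries for 35 of the 40 genes (28.1% of all tested genes), whereas Con 1 was below all DSS libraries for 15 (37.8%). Leaving out DSS 2 or DSS 3, the libraries with neutrophil and pancreas markers, left 2 called genes each (19.2% and 23.4% of all tested genes). These were Irf5 and Tmem173, which were called whichever of the 12 libraries was left out. Leaving out Con 2, Con 3 or DSS+UA 2 also left them as the only called genes (15.8%, 22.1% and 25.7% of all tested genes). DESeq2 on all 12 libraries called 14 genes lower and 2 higher in DSS (15.8% and 16.8% of all genes it tested).

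**Figure D3:**
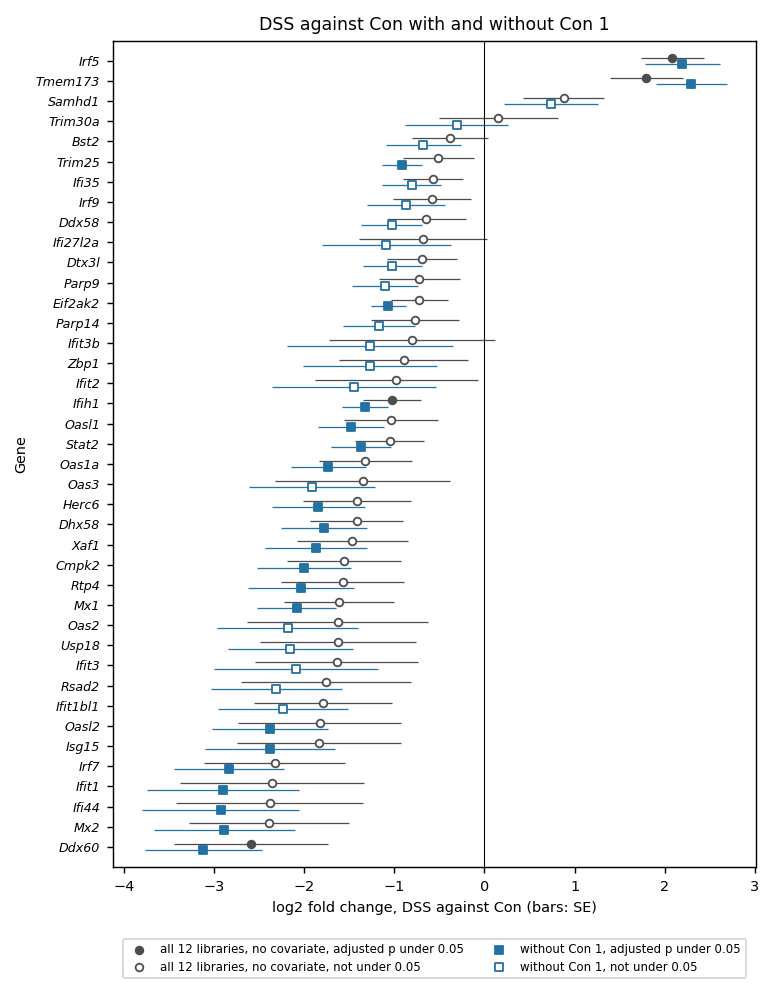
The log2 fold change of DSS against Con with its SE is given for each of the 40 genes, fitted with all 12 libraries (circles) and without Con 1 (squares), and filled where the adjusted p was under 0.05. With Con 1 left out the called genes go from 4 to 21, while Irf5 and Tmem173 stay on the right.

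Irf5, Tmem173 and the macrophage markers each had the highest library and the highest group mean in DSS. The 6 monocyte and macrophage markers summed to 1111 to 3612 CPM in DSS, 172 to 429 in Con, 315 to 661 in UA+DSS and 467 to 1236 in DSS+UA, and all 6 were above 0 in every library. The highest sum, in DSS 2, held 2512 CPM of Cd14 alone. The mean level of Irf5 was 7.65 ± 2.16 CPM in Con, 8.48 ± 2.18 in UA+DSS, 16.8 ± 2.92 in DSS+UA and 32.4 ± 13.0 in DSS (SD, n = 3). That of Tmem173 was 12.3 ± 6.53 CPM in Con, 11.5 ± 5.40 in UA+DSS, 35.8 ± 3.34 in DSS+UA and 42.7 ± 9.18 in DSS. Neither Irf5 nor Tmem173 kept the order of the marker sum library by library. UA+DSS 1 had a higher marker sum (661 CPM) than DSS+UA 1 and DSS+UA 3 (467 and 578). Its level was lower than theirs in Irf5 (10.96 against 15.8 and 14.5 CPM) and in Tmem173 (17.2 against 35.7 and 32.5). The 3 fibroblast markers summed to 1097 to 2182 CPM in DSS and 310 to 695 in the other groups, and the 3 endothelial markers to 168 to 284 in DSS and 63.5 to 137 in the others. Of the endothelial markers, Pecam1 and Cdh5 were higher in every DSS library than in any other. Kdr was not, at 47.6 CPM in Con 2 and 28.5 to 42.2 in DSS. The 4 B cell markers summed to 46.2 to 233 CPM in DSS, 35.4 to 159 in DSS+UA and 11.7 to 19.9 in UA+DSS, with 66.8 in Con 1 against 9.25 and 13.1 in Con 2 and Con 3. The part of any of these cells in the levels of Irf5 and Tmem173 was not tested.

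The comparison of UA+DSS with DSS asks what early UA changed in colitis. Ifih1 rose (log2 fold change 1.21, SE 0.32, adjusted p = 0.0267 by edgeR's quasi-likelihood test), and Ddx60 rose (log2 fold change 2.76, SE 0.86, adjusted p = 0.0489). Irf5 fell (log2 fold change -1.94, SE 0.35, adjusted p = 0.00998), as did Tmem173 (log2 fold change -1.90, SE 0.40, adjusted p = 0.0145). These were the 4 called genes of 40, and 18.7% of all tested genes were called. In the estimates 35 genes were higher in UA+DSS, with a median log2 fold change of 1.47 against -0.02 over all tested genes. Ifi44 (log2 fold change 3.20, SE 1.07, adjusted p = 0.0594), Ifit1 (log2 fold change 2.71, SE 1.03, adjusted p = 0.0897) and Ifit3 (log2 fold change 2.71, SE 0.94, adjusted p = 0.0674) had some of the largest estimates and were not called. All UA+DSS libraries were above all DSS libraries for 24 genes (21.3% of all tested genes) and below them for 2, Irf5 and Tmem173 (21.5%).

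UA+DSS 2 and Con 1, although the latter is in neither group, set this count. Without UA+DSS 2 none of the 40 genes was called in UA+DSS against DSS, where 0.504% of all tested genes rose and 0.498% fell. In that fit 6 of the 40 had an unadjusted p under 0.05, a description without the share of all tested genes beside it. Without Con 1, which enters the shared estimate of the spread, 15 genes rose and 2 fell, where 10.6% of all tested genes rose and 12.1% fell. With the position score described below in the edgeR fit, none was called, 1 had an unadjusted p under 0.05, and 0.0170% of all tested genes were called. DESeq2 without the score called 19 genes higher and 2 lower in UA+DSS (11.5% and 14.2% of all genes it tested). The median of the 40 genes with the score was -0.20, with 17 genes higher and 23 lower in UA+DSS. The scores of UA+DSS and DSS did not overlap, and the sign of the score's coefficient rested on Con 1. The fit with the score therefore cannot separate position from early UA.

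**Figure D4:**
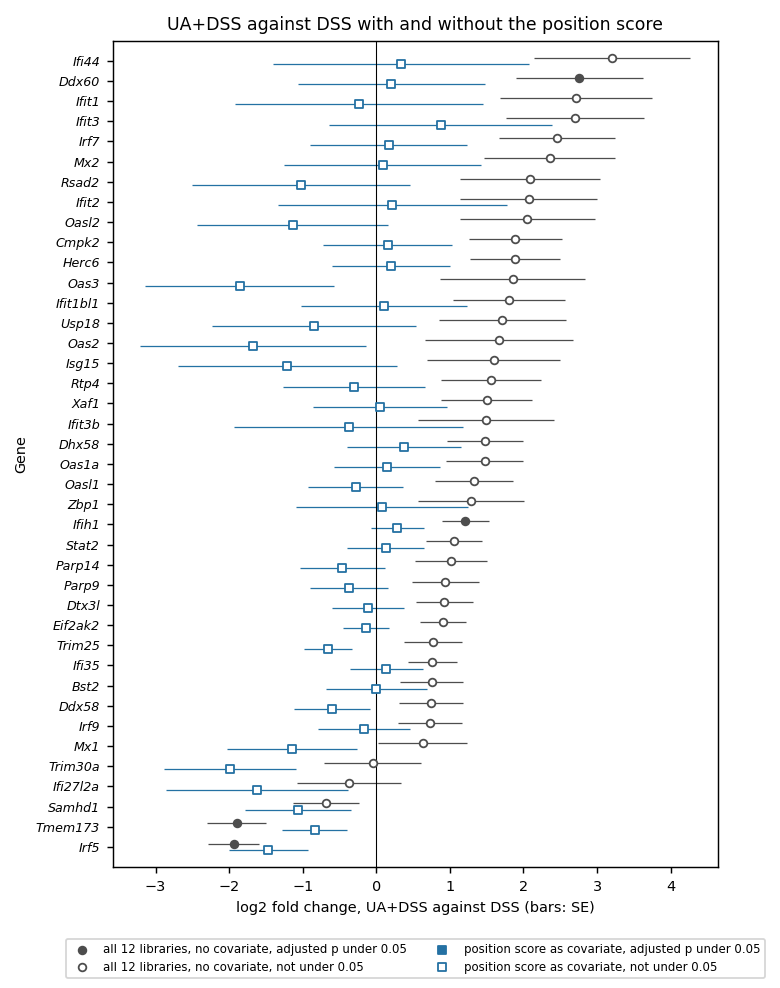
The log2 fold change of UA+DSS against DSS with its SE is given for each of the 40 genes, fitted without a covariate (circles) and with the position score as covariate (squares), and filled where the adjusted p was under 0.05. The squares lie around 0, 17 above it and 23 below it, and none is filled. The position scores of UA+DSS and DSS do not overlap, so the squares cannot separate position from early UA.

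Late UA was compared with DSS in the same way. None of the 40 genes was called in DSS+UA against DSS by edgeR, 3 had an unadjusted p under 0.05, and 7.54% of all tested genes were called. DESeq2 called 1 of the 40, Irf5 (17.8% of all genes it tested), and limma-voom none (6.52%). The 3 genes were Irf5 (log2 fold change -0.95, SE 0.34, adjusted p = 0.0918), Trim30a (log2 fold change -1.59, SE 0.68, adjusted p = 0.147) and Ifit1bl1 (log2 fold change 1.75, SE 0.76, adjusted p = 0.154). The estimates went both ways, with 18 genes higher and 22 lower in DSS+UA and a median log2 fold change of -0.04, against 0.02 over all tested genes. The groups overlapped for every gene, where 18.7% of all tested genes were higher and 16.1% lower in DSS+UA without overlap.

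UA+DSS against Con asks how far early UA left colitic colon from untreated colon. None of the 40 genes was called by edgeR, DESeq2 or limma-voom, and none had an unadjusted p under 0.05 in edgeR, in a comparison where edgeR called 0.00566% of all tested genes, DESeq2 2.23% and limma-voom 0.00%. The smallest p belonged to Mx1 (log2 fold change -0.98, SE 0.60, adjusted p = 0.513), followed by Ifi27l2a (-1.06, adjusted p = 0.553) and Ifit2 (1.10, adjusted p = 0.622). The estimates were higher in UA+DSS for 34 genes with a median of 0.18, but without Con 1 they were higher for 10 and lower for 30, with a median of -0.16. A p above the threshold does not show that the levels were alike.

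In DSS+UA against Con, Irf5 rose (log2 fold change 1.13, SE 0.34, adjusted p = 0.0411) and Tmem173 rose (log2 fold change 1.54, SE 0.40, adjusted p = 0.0247) by edgeR's test. Ddx60 (log2 fold change -2.94, SE 0.87, adjusted p = 0.0417) and Mx1 (log2 fold change -2.23, SE 0.63, adjusted p = 0.0337) fell. The 4 called genes of 40 stood against 18.1% of all tested genes (9.13% up and 8.95% down), and 36 genes were lower in DSS+UA in the estimates, with a median of -1.17 against -0.03 over all tested genes. Without Con 1, 24 genes fell and 1 rose (8.54% and 9.29% of all tested genes). In that fit Con lay wholly on the caecal side of the position score described below and DSS+UA on the rectal side. Position and treatment cannot be told apart there. With Con 1 in, no gene was lower in DSS+UA without overlap (19.2% of all tested genes), because Con 1 lay within or below the DSS+UA range for all 40 genes (63.7%). Without Con 2 or Con 3 none of the 40 was called (10.3% and 8.58% of all tested genes). Nor was any called without DSS+UA 1, DSS+UA 2 or DSS+UA 3 (9.91%, 11.7% and 5.81%). In these 5 edgeR fits 5 to 16 genes had an unadjusted p under 0.05, a description without the share of all tested genes beside it. This comparison and that of DSS with Con share the Con libraries.

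Early and late UA were compared directly, as UA+DSS against DSS+UA. Ddx60 was higher after early UA (log2 fold change 3.11, SE 0.88, adjusted p = 0.0371), as was Rsad2 (log2 fold change 3.32, SE 1.01, adjusted p = 0.0472), and Tmem173 was lower (log2 fold change -1.64, SE 0.40, adjusted p = 0.0211). These 3 of 40 genes stood against 16.8% of all tested genes called by edgeR (7.54% up and 9.23% down). The estimates were higher in UA+DSS for 36 genes with a median log2 fold change of 1.29, against 0.01 over all tested genes. For 26 genes all UA+DSS libraries were above all DSS+UA libraries (22.7% of all tested genes), and for 2, Irf5 and Tmem173, below them (22.6%). A fit of these 2 groups alone called 25 of the 40 genes (26.1% of all genes it tested), and the fit of all groups without Con 1 called 20 (21.5%), of which 19 were higher in UA+DSS (9.77% of all tested genes). Without UA+DSS 2 or DSS+UA 3 edgeR called none of the 40 (3.07% and 5.10% of all tested genes). In those fits 7 and 17 had an unadjusted p under 0.05, a description without the share of all tested genes beside it. With the position score in the fit edgeR called none either (0.00%), and 1 had an unadjusted p under 0.05. The scores of UA+DSS and DSS+UA did not overlap, so that fit cannot separate position from the time of UA.

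Whether these genes followed the position along the colon was examined with a score of Hox genes, which mark position along the gut. The score is the mean log2 CPM of Hoxb13 and Hoxd10 to Hoxd13, which mark the rectal end, minus that of Hoxb3 to Hoxb8, which mark the caecal end. It was 5.53, -3.03 and -1.83 in Con 1 to 3 and 3.10, 1.35 and 0.37 in DSS 1 to 3. It was -4.88, -5.70 and -4.16 in UA+DSS 1 to 3 and 4.11, 4.47 and 5.06 in DSS+UA 1 to 3. Con 2, Con 3 and the UA+DSS libraries thus had negative scores, here the caecal side, and the other 7 positive scores, the rectal side. The sign shows only which set of Hox genes was higher and marks no known place in the colon. DSS 3 had the smallest positive score (0.37) and the lowest interferon index of the 12 libraries (3.846). The 5 libraries of negative score were the same as those of high interferon index. For 20 of the 40 genes, all 5 were above all of the other 7 (5.03% of all tested genes), and for 1, Tmem173, all were below (4.06%). Since UA+DSS lay wholly on the caecal side and DSS and DSS+UA wholly on the rectal side, position and treatment cannot be told apart between those groups. Without Con 1, Con also lay wholly on the caecal side, and the same holds for Con against DSS and DSS+UA.

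**Figure D5:**
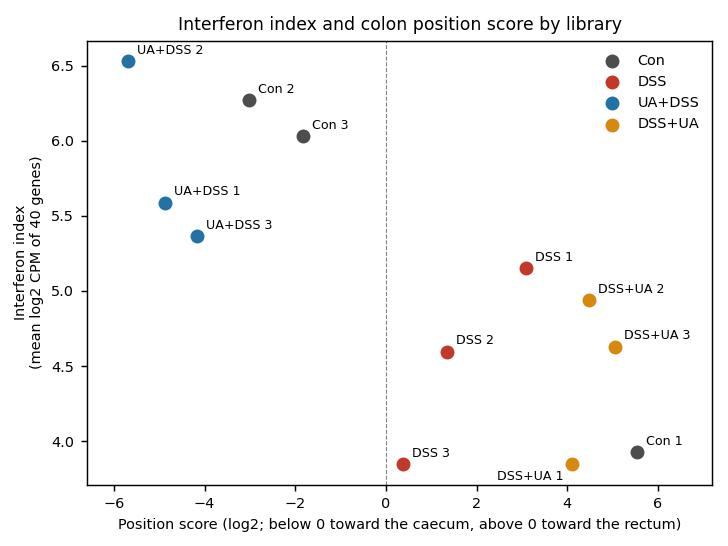
Each point is 1 of the 12 libraries, with the position score on the x axis and the interferon index on the y axis, coloured by group. The 5 libraries of negative score have an index of 5.37 to 6.53 and the 7 of positive score 3.85 to 5.15, with Con 1 at the lower right, away from Con 2 and Con 3.

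Within a group the index and the score did not keep 1 order. In Con the library of highest score had the lowest index. In DSS the library of highest score, DSS 1, had the highest index, and in UA+DSS the library of lowest score, UA+DSS 2, had the highest. In DSS+UA the lowest score, 4.11, went with the lowest index, 3.85.

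The coefficient of the score, in log2 units of the gene per unit of score, was tested by edgeR in a fit of group and score. It asks whether genes moved with the score among libraries of the same group. Trim25 was lower toward the rectum (-0.22 per unit, SE 0.04, adjusted p = 0.0361) and was the only one of the 40 genes called, where 1.27% of all tested genes were (0.521% with a positive and 0.748% with a negative coefficient). Eif2ak2 (-0.16, adjusted p = 0.0761) and Tmem173 (0.16, adjusted p = 0.129) came next and were not called. The coefficient was negative for 38 genes, with a median of -0.23 against 0.00 over all tested genes. DESeq2 called 16 of the 40, Trim25 among them (7.50% of all genes it tested). Without Con 2 or Con 3 edgeR called none (0.0547% and 0.0934%), nor without any 1 of the UA+DSS libraries (0.695%, 1.11% and 0.672%) or without DSS+UA 2 or DSS+UA 3 (1.02% and 0.580%). The sign of the coefficient rested on Con 1, the library that spans the 2 ends within a group. Without Con 1 the coefficient was positive for 28 genes and negative for 12, with a median of 0.13, and none was called (0.00552% of all tested genes).

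The position score as covariate also changed the treatment comparisons. In DSS against Con, Irf5 (1.98, SE 0.36, adjusted p = 0.0055), Tmem173 (1.68, SE 0.30, adjusted p = 0.00534) and Ifih1 (-0.73, SE 0.24, adjusted p = 0.0432) were still called, while Ddx60 was not (-1.25, adjusted p = 0.262), and 30.5% of all tested genes were called. The median of the 40 genes was -0.34 in place of -1.19. In DSS+UA against Con it was 0.14 in place of -1.17, and none was called, where 12.3% of all tested genes were. In UA+DSS against DSS+UA the median was -0.71 in place of 1.29. These adjusted values use the coefficient of the score, whose sign rested on Con 1. The scores of UA+DSS and DSS+UA did not overlap, so the last of them cannot separate position from the time of UA.

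The interferon ligands were at or near the limit of detection. Of the 20 type I and type III ligand genes listed, 16 had no count in any library and 4 (Ifnb1, Ifnab, Ifnk and Ifnz) had 17 counts in all. The highest level was 0.222 CPM, of Ifnk in DSS+UA 3. A gene without counts could still lie at up to 0.144 to 0.192 CPM by counting error alone, so ligand levels below that were not detectable. Plasmacytoid dendritic cells are known for making type I interferon. Of their 4 markers listed, Siglech reached 2.53 CPM at most, Ccr9 4.23 and Cox6a2 1.01. The sum of the 4 was nearly all Klk1, a kallikrein, and was 1101 to 1469 CPM in Con, 916 to 1260 in UA+DSS, 21.0 to 507 in DSS and 172 to 434 in DSS+UA.

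Of the receptors, Ifnar1 was at 46.6, 49.8 and 53.2 CPM in Con, 66.4, 145 and 75.1 in DSS, 63.0, 57.4 and 62.3 in UA+DSS and 45.2, 52.4 and 52.1 in DSS+UA. Ifnar2 was at 10.9, 9.42 and 11.4 CPM in Con, 37.2, 87.2 and 29.9 in DSS, 15.3, 10.9 and 12.4 in UA+DSS and 13.7, 21.2 and 14.7 in DSS+UA. Both were highest in DSS 2, and all DSS libraries of both were above all others. Ifnar1 rose in DSS against Con (log2 fold change 0.94, SE 0.25, adjusted p = 0.0178) and fell in DSS+UA against DSS (log2 fold change -0.94, SE 0.25, adjusted p = 0.0445). Ifnar2 rose in DSS against Con (log2 fold change 2.28, SE 0.36, adjusted p = 0.003), and fell in UA+DSS against DSS (log2 fold change -2.00, SE 0.36, adjusted p = 0.0101) and in DSS+UA against DSS (log2 fold change -1.64, SE 0.35, adjusted p = 0.0276). Both chains were thus highest in DSS, the group in which 36 of the 40 genes had estimates below Con. Ifnlr1, the receptor chain of interferon lambda, was at 19.6, 17.8 and 16.4 CPM in Con, 11.5, 25.7 and 12.7 in DSS, 17.9, 12.7 and 17.6 in UA+DSS and 17.4, 18.4 and 16.3 in DSS+UA and was called in no comparison.

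Irf1, which also answers interferon gamma, was at 140.0, 194 and 155 CPM in Con, 94.9, 184 and 66.8 in DSS, 225, 148 and 114 in UA+DSS and 88.2, 322 and 119 in DSS+UA. It was called in no comparison, and its groups overlapped. Its lowest Con library was Con 1, with a smaller gap than in Irf7.

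Of the 43 further genes of the pathway, 23 were tested and 20, the ligands, were not. In DSS against Con 8 of the 23 rose and 1 fell (13.9% and 12.6% of all tested genes). Those that rose were Ifnar1, Ifnar2, the kinase Jak1 (0.88), the receptors Tlr7 (2.28) and Tlr9 (2.96), their adaptor Myd88 (1.22), the phosphatase Ptpn2 (0.45) and the feedback inhibitor Socs3 (4.95 on the log2 scale). Tlr3, the endosomal sensor of double-stranded RNA, fell (-0.96). In UA+DSS against DSS, Tlr3 rose (1.22), as did Mavs, the adaptor of RIG-I and MDA5 (0.67). Ifnar2, Jak1 (-0.52), Myd88 (-1.09), Socs3 (-3.08) and Tlr7 (-1.68) fell there. That was 2 up and 5 down, where 8.21% of all tested genes rose and 10.5% fell. In DSS+UA against DSS, Ifnar1, Ifnar2 and Tlr7 (-1.92) fell and none rose, which made 3 of 23 called against 7.54% of all tested genes.

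In UA+DSS against Con edgeR called none of the 23, where it called 0.00566% of all tested genes, and 2 had an unadjusted p under 0.05. DESeq2 and limma-voom called none either (2.23% and 0.00% of all genes they tested). In DSS+UA against Con, Socs3 rose (log2 fold change 2.84, SE 0.64, adjusted p = 0.0164) and Trim56, a ubiquitin ligase that aids STING and TLR3 signalling, fell (log2 fold change -1.27, SE 0.27, adjusted p = 0.012). These 2 of 23 stood against 18.1% of all tested genes called by edgeR. Trim56 was at 48.1, 103 and 111 CPM in Con, 56.9, 60.6 and 70.3 in DSS, 100.04, 105 and 81.6 in UA+DSS and 32.4, 34.5 and 41.6 in DSS+UA. It was higher in UA+DSS than in DSS+UA (log2 fold change 1.40, SE 0.27, adjusted p = 0.00961) and was lower toward the rectum in the position fit (-0.14 per unit, adjusted p = 0.0461). Con 2, Con 3 and the UA+DSS libraries of Trim56 were above all of the other 7, as for Irf7 and Ddx60. The macrophage and neutrophil markers also had their highest library in DSS, and their part in the pathway genes that rose there was not tested.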

How the data were processed

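Colon RNA of 12 mice, 3 in each of 4 groups, was sequenced by the authors on an Illumina instrument, inspected with FastQC and mapped to GRCm38. The deposited values are the authors' whole-number read counts per Ensembl gene from HISAT2, without normalization. Not given in the sources used here are the version, counting program, annotation and strand setting, and how reads matching several genes were treated. Cuffdiff is named in the submitters' processing notes without a role. Groups and replicate numbers came from the sample labels.

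The 54532 genes of each library were named by GENCODE M21 (GRCm38). Library totals were 15566216 to 19498383 (median 18569670), and the floors of 3 counts state counting error alone. The filterByExpr filter of edgeR (version 4.0.16, R 4.3.3) left 17658 genes with 99.8% of the counts. They were scaled by TMM (factors 0.871 to 1.09) in a robust quasi-likelihood model of 4 group means for all 12 libraries, with a biological coefficient of variation of 0.352. The 6 comparisons and the position coefficient were tested at a threshold of 0.05 after Benjamini-Hochberg adjustment across the genes tested. Counts of genes at an unadjusted p under 0.05 are given without the share of all tested genes and are a description only. The fit was tested on simulated data. Index and position score used log2 CPM with a prior count of 2. RPKM used merged exon lengths. Promoter windows came from the RefSeq table, with no entry for 11 genes.

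Alternatives were DESeq2 1.42.0, limma-voom (limma 3.58.1), scaling by library size or by upper quartiles, no filter, at least 10 counts in every sample, the replicate number as a block, a fit of 2 groups, the position score as covariate, each end of that score alone and leaving out each library. Between libraries of a group chi-square was at least 21.3 times its degrees of freedom, so none was a repeat of another.

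The 40 genes, the pathway list, the markers and the position score were chosen with earlier results of these data known. Values in every library are given for the gene of highest mean CPM in each of 8 role sets and for the 3 of smallest p in each comparison and for the position coefficient, 17 genes in all. Of the pathway list, Ifnar1, Ifnar2, Ifnlr1, Irf1 and each called gene are named, and 1 further gene is not reported here. Isg15, Ifit1 and other genes of the 40 that appear with a fold change or range outside this rule, such as Ifi44 and Ifit3, were added after their values were seen.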

Additional observations from a re-analysis of the deposited data

Results flagged for a closer look

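In 3 of the 40 genes the effect of UA on colitic colon, taken against DSS, differed between early and late UA by edgeR's quasi-likelihood test of the difference itself. DSS enters both effects and cancels, so this test is the comparison of UA+DSS with DSS+UA already given above. It called 16.8% of all tested genes, so 3 of 40 was below the background. The effect of early UA minus that of late UA on the log2 scale was 3.11 in Ddx60 (SE 0.88, adjusted p = 0.0371), 3.32 in Rsad2 (SE 1.01, adjusted p = 0.0472) and -1.64 in Tmem173 (SE 0.40, adjusted p = 0.0211). All 3 UA+DSS libraries lay above all 3 DSS+UA libraries in Ddx60 and Rsad2 (22.7% of all tested genes) and below them in Tmem173 (22.6%). The position score was -5.70 to -4.16 in UA+DSS and 4.11 to 5.06 in DSS+UA. With the score in the fit the differences were -0.26 in Ddx60, -0.69 in Rsad2 and -0.12 in Tmem173 (adjusted p = 0.900 to 0.963 over the 3). Position and time of UA cannot be told apart between these groups. Without UA+DSS 2 or DSS+UA 3 none of these genes was called in this comparison (3.07% and 5.10% of all tested genes).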

How the results depend on the processing

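Each count of the 40 genes called is followed in brackets by the share of all tested genes called in the same fit. DESeq2 called 16 in DSS against Con (32.7%), 18 in DSS+UA against Con (26.7%), 21 in UA+DSS against DSS (25.7%), 22 in UA+DSS against DSS+UA (24.9%), 1 in DSS+UA against DSS (17.8%) and 16 for the position coefficient (7.50%). limma-voom called 2 in DSS against Con (26.1%) and 1 in DSS+UA against Con (16.6%). In the fit of only the 2 groups compared the counts were 2 in DSS against Con (12.6%), 7 in UA+DSS against DSS (12.4%) and 25 in UA+DSS against DSS+UA (26.1%). With at least 10 counts in every sample they were 8 in UA+DSS against DSS (22.2%) and 10 in UA+DSS against DSS+UA (20.2%). Without a filter they were 2 in DSS+UA against Con (7.03%) and 1 in UA+DSS against DSS+UA (6.69%). In UA+DSS against DSS+UA, library size alone gave 5 (13.2%) and upper-quartile factors 7 (16.2%). With the position score as covariate none was called in UA+DSS against DSS (0.0170%), DSS+UA against Con (12.3%) and UA+DSS against DSS+UA (0.00%), and 9 rather than 22 calls of pathway genes were left over the 6 comparisons. In these, 0.00566% to 26.5% of all tested genes were called without the score and 0.00% to 30.5% with it. There Ddx60 (-0.26) and Rsad2 (-0.69) turned direction in UA+DSS against DSS+UA. The scores of UA+DSS did not overlap those of DSS or DSS+UA, so these fits cannot separate position from UA. With the caecal genes alone as score none was called for the position coefficient (0.00%). The causes of these shifts were not tested. Library size alone as scaling moved the median of all tested genes from -0.02 to -0.12 in UA+DSS against DSS and from 0.02 to -0.11 in DSS+UA against DSS, where 12 of the 40 genes were then higher and 28 lower. Leaving out 1 library at a time gave 2 to 21 calls in DSS against Con (15.8% to 25.7%), 0 to 17 in UA+DSS against DSS (1.0% to 22.7%), 0 in UA+DSS against Con (0.00% to 0.0219%), 0 to 1 in DSS+UA against DSS (0.137% to 10.1%), 0 to 25 in DSS+UA against Con (5.81% to 22.4%), 0 to 20 in UA+DSS against DSS+UA (3.07% to 21.5%) and 0 to 3 for the position coefficient (0.00552% to 4.25%). The pathway genes had 13 to 26 calls over the 6 comparisons, beside the same shares of all tested genes. The highest of these counts of the 40 genes in DSS against Con, UA+DSS against DSS, DSS+UA against Con and UA+DSS against DSS+UA came without Con 1. Leaving out 1 library at a time also moved the mean interferon index, to 4.98 to 6.15 in Con, 4.22 to 4.88 in DSS, 5.48 to 6.06 in UA+DSS and 4.24 to 4.78 in DSS+UA. Over the single genes of the 40 named with a test, 504 alternative values were computed for 24 results, of which 368 kept their direction and side of the threshold, 128 lost the call, 6 gained one and 2 turned direction.

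The replicate number as a block left 3 calls in DSS against Con (24.8%), 2 in DSS+UA against Con (16.5%), 3 in UA+DSS against DSS (17.8%), 4 in UA+DSS against DSS+UA (17.0%) and 0 for the position coefficient (0.0623%). The numbers are not a pairing by the labels, and of 18 pairs of libraries with 1 number 5 correlated above 0.1 (range -0.22 to 0.19). 5 of the 12 libraries correlated best with their own number. The depth limits the ligands, of which none passed the low-count filter.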
